A study of Mus musculus with 10 samples.

Results

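A set of 4332 regions of the neonatal mouse retina carried acetylated histone H3 lysine 27 (H3K27ac) far from any protein-coding gene end. They carried it in control and in Casz1 conditional knockout (cKO) tissue, and overlapped no called peak of open chromatin. They were taken from the 71655 peaks of the control H3K27ac list in steps. Of these peaks, 70458 lay on chromosomes 1 to 19, 42189 of those were at least 300 bp wide, and 38171 of those overlapped a cKO H3K27ac peak by at least 1 bp. More than 5 kb from both ends of every protein-coding gene in the RefSeq table (20661 genes on these chromosomes) lay 22139 of them, called distal here. The 4332 regions are the 19.6% of distal peaks (95% interval 19.05% to 20.10%) that overlapped no peak in any of 4 ATAC lists. The other 17807 overlapped at least 1 ATAC peak and are called open distal peaks. Overlap, control width and distance from gene ends chose the regions, so these values are given as a description and not tested.

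All mice were C57BL/6. The ATAC libraries, 2 control and 2 cKO, came from explanted retina labelled as postnatal day 2. Control explants were wild type and received a GFP plasmid, while cKO explants received GFP together with the recombinase Cre, and after 2 days of culture each library was made from 50000 viable cells sorted for GFP. The histone mark libraries, 1 control (wild type) and 1 cKO per mark, were made without culture or sorting from retina labelled P0, and the cKO tissue was the fluorescent part of the peripheral retina. The driver of Cre in the tissue and the deleted part of Casz1 are not stated in the labels. H3K27ac and ATAC therefore came from different ages, preparations and cell mixtures, and a region closed in all cells and a region open only in cells outside the sorted pool cannot be told apart here.

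H3K27ac is laid down by the acetyltransferases p300 and CBP on nucleosomes at active promoters and enhancers, the distant elements that raise transcription of their target genes. At a typical active enhancer, transcription factors hold a short stretch free of nucleosomes, which the transposase of ATAC-seq can cut, and the acetylated nucleosomes lie on either side of it. H3K27me3 is placed on the same lysine by Polycomb repressive complex and marks silenced developmental genes. Casz1 encodes a zinc finger transcription factor of retinal progenitors that favours rod photoreceptor fate.

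A few regions held annotated transcription starts, since the distance rule used only the outer ends of protein-coding genes. RefSeq placed 40 starts of 37 genes (13 protein-coding and 24 lncRNA) in 38 of the regions. The 250 bases upstream of these starts had a median of 5 CpG dinucleotides, against 9 at 1453 starts in open distal peaks and 6 at all 31396 starts in the table. The sequences below, from RefSeq (GRCm38.p6, the mm10 assembly), are shown because they span this range, and were chosen after their values were seen. Each is the 250 bases before the start on the gene's strand, 5′ to 3′, with CpG in capitals.
Myo1c (chr11:75655765-75656014, plus strand): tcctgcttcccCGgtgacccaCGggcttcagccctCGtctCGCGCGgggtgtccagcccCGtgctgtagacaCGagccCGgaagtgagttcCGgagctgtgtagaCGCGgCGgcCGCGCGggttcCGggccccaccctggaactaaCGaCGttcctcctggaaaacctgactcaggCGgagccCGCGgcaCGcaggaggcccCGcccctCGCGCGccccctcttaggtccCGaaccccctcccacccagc
Dlg4 (chr11:70023732-70023981, plus strand): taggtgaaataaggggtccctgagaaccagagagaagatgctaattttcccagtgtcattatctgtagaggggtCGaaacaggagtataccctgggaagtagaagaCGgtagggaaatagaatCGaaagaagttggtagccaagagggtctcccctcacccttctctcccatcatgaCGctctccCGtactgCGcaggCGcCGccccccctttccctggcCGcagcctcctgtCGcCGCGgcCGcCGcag
Slc6a9 (chr4:117855297-117855546, plus strand): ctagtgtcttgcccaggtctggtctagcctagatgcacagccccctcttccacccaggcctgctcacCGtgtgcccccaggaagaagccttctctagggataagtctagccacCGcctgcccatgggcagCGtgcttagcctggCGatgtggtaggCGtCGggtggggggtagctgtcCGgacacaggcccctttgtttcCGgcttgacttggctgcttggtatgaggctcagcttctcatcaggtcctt
Espn (chr4:152136326-152136575, minus strand): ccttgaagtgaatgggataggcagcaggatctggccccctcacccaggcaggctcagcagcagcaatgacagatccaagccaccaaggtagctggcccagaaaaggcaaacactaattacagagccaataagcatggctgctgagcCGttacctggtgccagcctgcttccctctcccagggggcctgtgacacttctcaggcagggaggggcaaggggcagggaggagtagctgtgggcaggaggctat
Kif1a (chr1:93082481-93082730, minus strand): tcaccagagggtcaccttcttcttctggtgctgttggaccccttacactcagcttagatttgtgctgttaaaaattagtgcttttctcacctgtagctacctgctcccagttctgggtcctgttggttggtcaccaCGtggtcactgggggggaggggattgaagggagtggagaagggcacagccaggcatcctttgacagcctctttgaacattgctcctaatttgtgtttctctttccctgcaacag

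The start of Myo1c, an unconventional myosin, had 28 CpG, the most of the 40, and its 683 bp region (784 bp of H3K27ac in cKO) lay wholly under H3K27me3 in both genotypes. Dlg4, which encodes the postsynaptic scaffold PSD-95, had 14 CpG before its start, and its region (1052 bp in control, 782 bp in cKO) had no H3K27me3 peak. Slc6a9, the glycine transporter of glycinergic amacrine cells, had 8. Espn, an actin-bundling protein, and Kif1a, an axonal transport kinesin, had 1 each. The Kif1a region was 1899 bp in control and 10129 bp in cKO, whereas the Espn region measured 1526 bp and 1352 bp. The ratio of observed to expected CpG had a median of 0.257 at the 40 starts, 0.499 at starts in open distal peaks and 0.379 at all starts. It exceeded 0.6 at 3 of 40 starts (7.5%), those of Myo1c, Dlg4 and the lncRNA Gm36809, compared with 39.3% and 34.5% in the other sets. Of the 38 regions that held a start, 5 (13.2%) had H3K27me3 in both genotypes, where 92 of all 4332 regions (2.12%) did. Among the 5 were 2 of the 3 with a CpG-rich start. The difference was not tested.

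The same 250 bases were searched on both strands for 5 short motifs, as a description only. The GC-box core GGGCGG was found at 25% of the 40 starts, against 41.8% of starts in open distal peaks and 33.0% of all starts. The TATA box TATAAA was found at 5% of the 40, 7.64% and 12.4%. The homeodomain core TAATTA was at 5%, 4.27% and 4.81%, the Crx and Otx2 core TAATCC at 7.5%, 6.19% and 6.26%, and the E-box CAGCTG at 15.0%, 16.5% and 13.0%. TAATTA and CAGCTG read the same on both strands. With 40 starts, each motif share in the regions rests on 2 to 10 starts.

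Of 919 miRNA hairpins in the RefSeq table, 6 overlapped a region and 31 an open distal peak. One region held the hairpins of miR-181a-1 and miR-181b-1, whose mature forms share a seed and are known from inner retinal neurons, and another held miR-206, known as a muscle miRNA. The mature sequences (GRCm38.p6) are given 5′ to 3′ with the seed, bases 2 to 8, in capitals.
miR-181a-5p (chr1:137966468-137966490, plus strand): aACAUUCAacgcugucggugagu
miR-181b-5p (chr1:137966650-137966673, plus strand): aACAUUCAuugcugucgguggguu
miR-206-3p (chr1:20679055-20679076, plus strand): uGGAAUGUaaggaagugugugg

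The miR-181 region (chr1:137965904-137967347) was 1444 bp wide in control and 1293 bp in cKO, with the nearest ATAC peak 1617 bp away. The region of miR-206 (chr1:20678337-20679093) was 757 bp in control and 165 bp in cKO, 5 bp from an ATAC peak. Both lay outside protein-coding genes. The other 3 hairpins were miR-12197, miR-1191b and miR-6927.

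The regions were narrow peaks. Their median control width was 481 bp (95% interval 475 to 489 bp), with quartiles of 376 and 684 bp and a highest value of 3374 bp. Open distal peaks had a median of 847 bp (833 to 859 bp), quartiles of 516 and 1491 bp and a highest value of 23337 bp. Together the regions covered 2.57 Mb, against 21.6 Mb for the open distal peaks. At least 1000 bp was reached by 425 regions (9.81%) and by 7475 open distal peaks (42.0%). The narrower a distal peak was, the more often it lacked ATAC: 37.7% of distal peaks of 300 to 399 bp, 30.3% of 400 to 599 bp, 18.0% of 600 to 999 bp and 5.38% of 1000 bp or more were among the regions. A narrower peak offers fewer bases for an overlap, so the overlap rule favours this order by construction. How much of it arises in this way was not tested. The share without ATAC also differed between chromosomes, from 16.04% on chromosome 3 to 23.2% on chromosome 7. These intervals treat peaks as independent and cover counting error only, since each mark had 1 library per genotype.

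The rule's edges carried no gap. There were 153 regions of 300 to 309 bp, and 177 peaks of 290 to 299 bp met every other condition. Between 5 and 5.5 kb from a gene end lay 89 regions, and 95 peaks at 4.5 to 5 kb met the other conditions. A gap of at most 50 bp separated 216 regions from an ATAC peak, while 312 distal peaks left out had at most 50 bp under ATAC peaks.

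Along the number of ATAC lists with an overlapping peak, from 0 to 4, the values of the regions stood at one end of an ordered series. Median control width was 481, 537, 599.5, 763.5 and 1314 bp for 0, 1, 2, 3 and 4 lists (4332, 1527, 4584, 3984 and 7712 peaks). The median ratio of cKO to control H3K27ac width was 0.79, 0.85, 0.88, 0.91 and 0.95. The share with H3K27me3 in control was 2.35%, 3.08%, 5.96%, 7.05% and 8.43%, and the share inside a protein-coding gene 67.2%, 62.0%, 58.4%, 56.4% and 56.1%. Peaks open in 1 list were closest to the regions in all 4 values. A wider peak offers more bases for an overlap in any list, so the order of widths is favoured by construction.

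**Figure D1:**
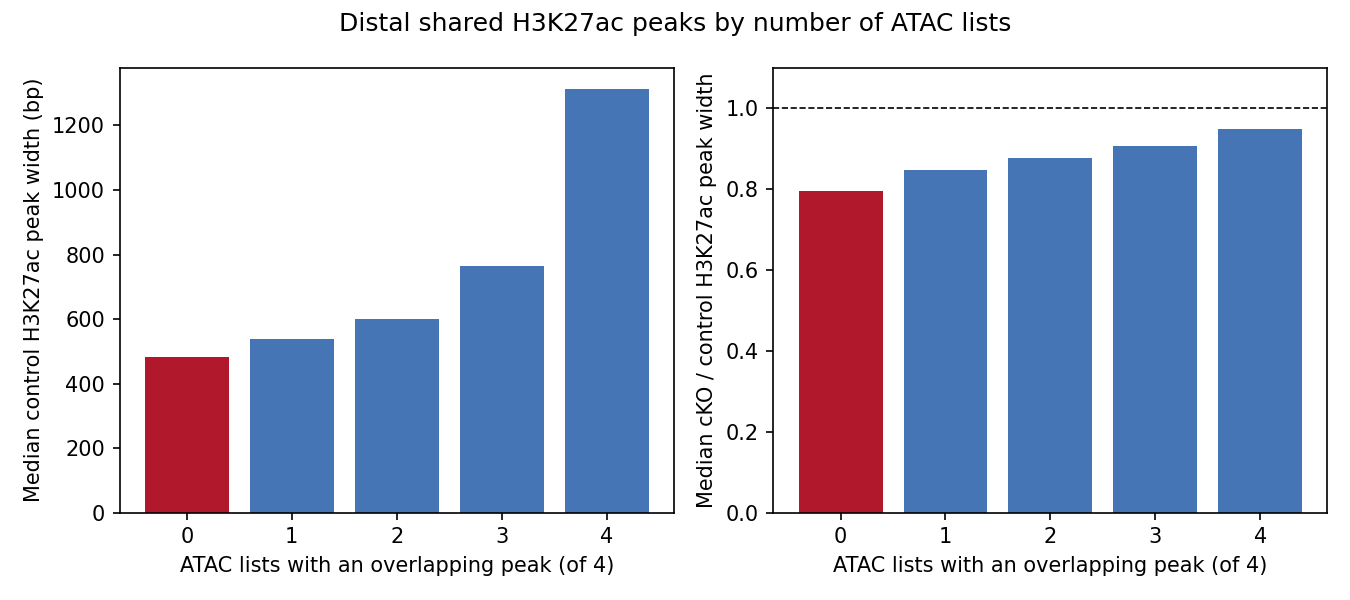
Distal shared H3K27ac peaks grouped by the number of ATAC lists (0 to 4) with an overlapping peak; bars give the median control peak width in bp (left) and the median ratio of cKO to control peak width (right, dashed line at 1). The regions, in red, have the lowest medians, 481 bp and 0.79, and peaks called in 4 lists the highest, 1314 bp and 0.95.

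What lay around the regions was then described. Most had an ATAC peak within 5 kb, though fewer had one within 1000 bp. The same ATAC lists chose the regions, and no share was computed for other positions. The median gap to the nearest ATAC peak of any list was 1237 bp (95% interval 1167 to 1288 bp). Within 250 bp of an ATAC peak lay 731 regions (16.9%), within 1000 bp 1913 (44.2%) and within 5 kb 3813 (88.0%). Beyond 10 kb lay 221 (5.10%) and beyond 20 kb 90 (2.08%). The name thus describes the bases under each peak and not the neighbourhood.

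Other acetylated peaks lay close by. The median gap from a region to the next control H3K27ac peak was 344 bp (328 to 359 bp), against 681 bp (639 to 729 bp) for open distal peaks. A neighbour within 500 bp was present for 2727 regions (63.0%) and for 45.6% of open distal peaks. When control H3K27ac peaks up to 500 bp apart were joined, 1932 regions (44.6%, 43.1% to 46.1%) fell in a domain that also held an ATAC-overlapping peak, 795 in a domain that held none, and 1605 (37.0%) stayed alone. Joining across 1000 bp put 61.0% in a domain with an ATAC-overlapping peak, and across 2000 bp 72.3%. Whether a gap between adjacent H3K27ac peaks is a drop in acetylation or a break made by peak calling cannot be told from positions alone.

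Width ratio and gene placement were also read by distance from open chromatin. Those within 250 bp of an ATAC peak (731) had a median cKO to control width ratio of 0.88, and 62.4% lay inside a protein-coding gene. At 2001 to 5000 bp (948 regions) the ratio was 0.75 and 70.3% were inside a gene. The 90 regions beyond 20 kb had a ratio of 0.80, and 43.3% were inside a gene. A cKO peak at least 1.5-fold wider was found for 23.9%, 11.6% and 11.1% of these classes.

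Distances in the single ATAC libraries followed the length of each list. The median gap to the nearest peak was 4063 bp in control replicate 1 and 1345 bp in control replicate 2, and 1586 bp in cKO replicate 1 and 2445.5 bp in cKO replicate 2. The corresponding lists held 39636, 108569, 91931 and 59574 peaks on chromosomes 1 to 19. A peak within 5 kb was found for 55.2%, 86.4%, 82.9% and 70.5% of regions, so both control values lay outside the range of the cKO values, 1 below and 1 above. The mean was 70.8% ± 22.1 (SD, n = 2) in control and 76.7% ± 8.83 (SD, n = 2) in cKO, a difference of 5.89 percentage points (exact two-sided permutation test over libraries, p = 1, where 0.333 is the smallest p that 6 relabelings allow). The sign differed between lists of different length. Between the shorter lists, cKO replicate 2 exceeded control replicate 1 by 15.2 points, and between the longer lists cKO replicate 1 minus control replicate 2 was -3.46 points. Without control replicate 1 the difference was -9.69 points, and without cKO replicate 1 it was -0.60 points. The same lists chose the regions, and 2 libraries per group cannot give a p below that limit, so these values are a description and the test decides nothing.

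**Figure D2:**
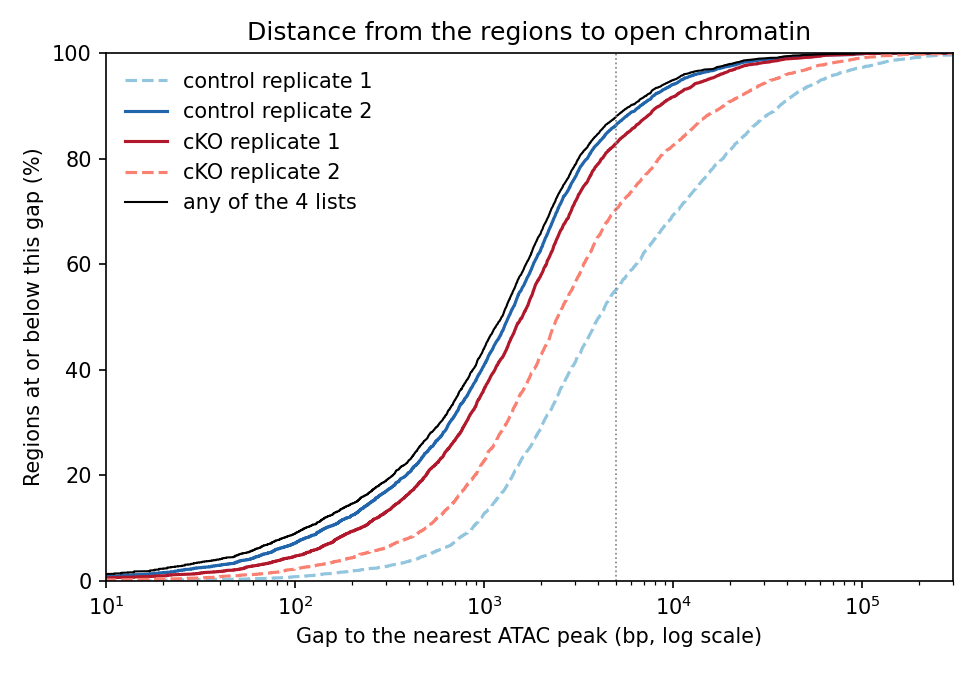
Cumulative share of the 4332 regions (y axis, %) against the gap to the nearest ATAC peak (x axis, bp, log scale) for each ATAC library and for the 4 lists together (black); the dotted line marks 5 kb. At 5 kb the curves stand at 55.2% and 86.4% for control replicates 1 and 2, and at 82.9% and 70.5% for the cKO pair.

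H3K27ac over the regions was narrower in the cKO library than in the control library. The median ratio of cKO to control width was 0.79 (95% interval 0.77 to 0.81), against 0.92 over open distal peaks and 0.94 over all 38171 shared peaks. The cKO peak was at least 1.5-fold narrower for 1712 regions (39.5%), where 16.9% of all shared peaks were, and at least 1.5-fold wider for 766 (17.7%), where 8.26% of all shared peaks were. Both directions were thus more frequent among the regions, and narrowing exceeded widening. The shared peaks were wider, with a median of 925 bp in control, so shares at matched width follow below. The cKO list as a whole held more and narrower peaks, 76177 with a median of 322 bp against 70458 with a median of 397 bp, over 50.7 Mb against 54.4 Mb. There was 1 library per genotype, so these values have no replicate check and no test, and genotype cannot be told apart from library.

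Control width entered the rule, so the comparison was repeated within width classes and from the other list. In peaks of 300 to 399, 400 to 599, 600 to 999 and at least 1000 bp, the median ratio was 0.87, 0.76, 0.73 and 0.84 over the regions. Over open distal peaks of the same widths it was 0.99, 0.89, 0.89 and 0.93. Peaks 1.5-fold wider in cKO made up 23.9%, 17.8%, 11.9% and 10.8% of the regions. Among open distal peaks they made up 21.1%, 14.1%, 8.62% and 2.72%. Narrower ones made up 34.1%, 43.1%, 45.0% and 30.8% of the regions, against 23.7%, 28.2%, 25.4% and 8.96%. When the rule started from the cKO list, with the minimum width set on cKO peaks, 4213 regions were found. The cKO to control ratio was then 0.84 (0.81 to 0.86), against 0.92 over open distal peaks and 0.94 over all shared peaks. In this ratio the single cKO peak was divided by the summed width of the whole control peaks over it, so the measure differs. From this start 39.6% of regions were narrower in cKO and 19.4% wider. With the cKO peak required to cover at least 50% of the control peak, which removes many of the narrowest cKO peaks by construction, the ratio was 0.99.

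The cKO peaks seldom matched the control peaks base for base. A single cKO peak overlapped 3720 regions (85.9%) and several overlapped 612 (14.1%). The median share of a region's bases under cKO peaks was 59.2%, against 84.0% for open distal peaks. For 578 regions (13.3%) the cKO H3K27ac peak extended as far as an ATAC peak, and for these the median ratio was 2.52. They included 420 of the 766 regions with a wider cKO peak. The other 3754 regions had a median ratio of 0.73. The rule keeps regions off ATAC peaks, so a cKO peak that reaches one runs past the control peak. The split by reach therefore favours a higher ratio in the 578 by construction.

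**Figure D3:**
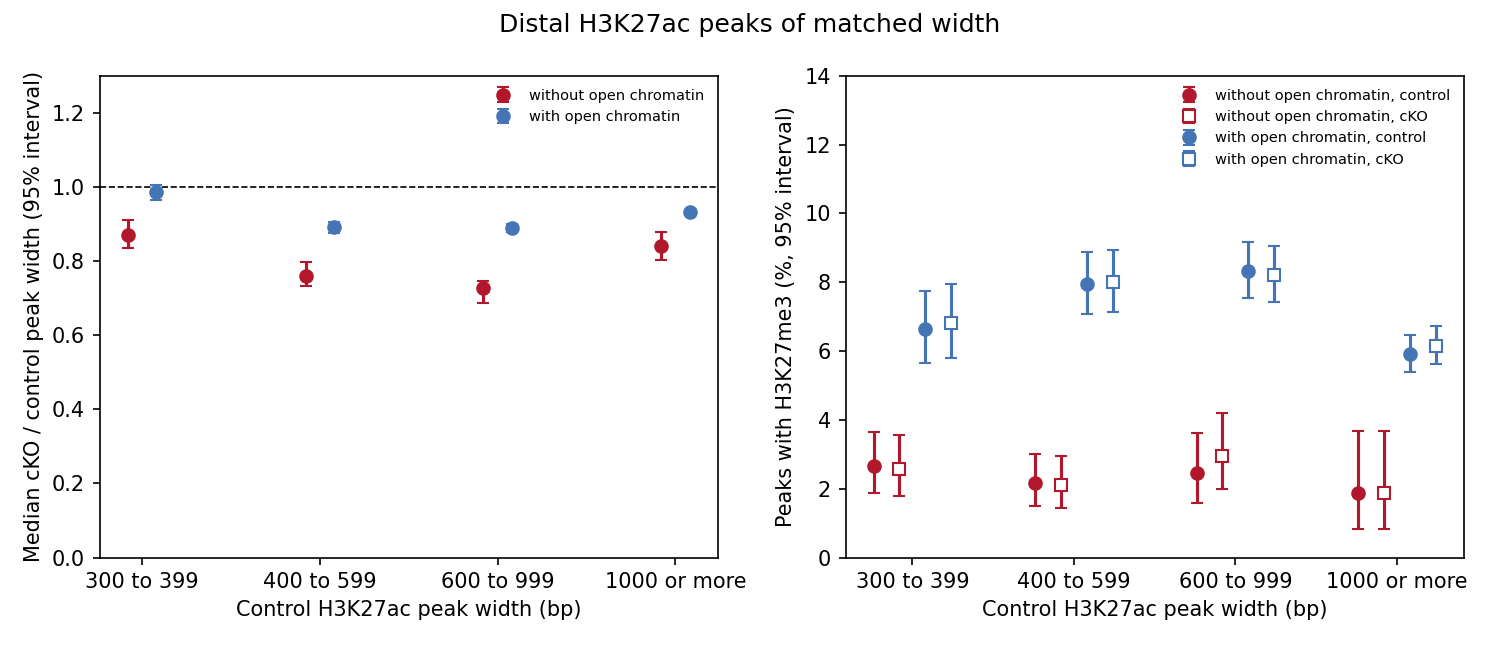
Distal H3K27ac peaks without (red) and with (blue) open chromatin in 4 classes of control width (x axis, bp). Left, the median ratio of cKO to control width with its 95% interval, which is lower for the regions in each class (0.87, 0.76, 0.73 and 0.84 against 0.99, 0.89, 0.89 and 0.93). Right, the share with an H3K27me3 peak (%, 95% binomial interval) in control (filled) and cKO (open), between 1.88% and 2.95% for the regions and between 5.91% and 8.33% for open distal peaks.

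H3K27me3, which the rule did not use, was rare over the regions and similar in both libraries. A peak overlapped 102 regions in control (2.35%, exact binomial interval 1.92% to 2.85%) and 105 in cKO (2.42%, 1.99% to 2.93%). Among all shared H3K27ac peaks the shares were 11.8% in control and 11.8% in cKO, and among open distal peaks 7.03% and 7.13%. The lower share held at matched width, with 2.65%, 2.17%, 2.44% and 1.88% of regions in the 4 width classes in control against 6.64%, 7.95%, 8.33% and 5.91% of open distal peaks. Both libraries had a peak at 92 regions, only control at 10 and only cKO at 13. Over the 92, the median covered length was 411 bp in control and 400 bp in cKO, with 24 regions longer in cKO, 20 shorter and 48 equal. The 48 equal ones were wholly covered in both.

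The 8 regions with most bases under H3K27me3 in both libraries are named as examples. A 1198 bp region inside Tfap2b (chr1:19215721-19216918), a transcription factor gene of amacrine and horizontal cells, was wholly covered in both genotypes, as were an 1139 bp region inside Tbx5 (chr5:119839138-119840276), a T-box gene of dorsal retina, and a 941 bp region 5.24 kb from Meis1 (chr11:18874249-18875189), a homeobox gene of retinal progenitors. Their cKO H3K27ac widths were 998, 320 and 1187 bp. A region of 856 bp lay 8.56 kb from Barhl2 (chr5:106466726-106467581), a homeobox gene of amacrine and ganglion cells, and was also wholly covered. The longest stretch was 13.2 kb from Cyp8b1, a bile acid synthesis gene, with 2242 bp in control and 2378 bp in cKO of a 2403 bp region. The remaining ones were near Ostm1 (921 bp), near Ythdf1 (913 bp) and in a gene-poor stretch of chromosome 18. These 8 regions were ranked by H3K27me3, so the ranking says nothing of the other regions.

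Inside a protein-coding gene lay 2910 regions (67.2%, 65.8% to 68.6%). The share was 57.2% among open distal peaks and 71.0% among all shared peaks, which include those close to gene ends. Outside genes, 700 were within 50 kb of a gene end and 722 farther. The median distance to the nearest gene end was 35.2 kb, against 37.2 kb. An end of an annotated non-coding gene or pseudogene was overlapped by 70 regions (1.62%) and by 5.69% of open distal peaks. Within 5 kb of such an end lay 810 regions (18.7%) and 21.7% of open distal peaks. Exons and introns could not be assigned with the annotation used.

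The 2910 regions inside genes were spread over 1364 protein-coding genes, of which 816 held exactly 1 region. At least 5 were held by 129 genes and at least 10 by 36, which together accounted for 496 regions. The rule keeps regions 5 kb from both gene ends, so no gene under 10 kb can hold one. The median length was 101 kb for genes that held a region and 85.4 kb for the 3631 genes that held an open distal peak. Msi2, which encodes an RNA-binding protein of the Musashi family active in neural progenitors, held the most, 45 regions beside 36 open distal peaks. Control H3K27ac covered 37.7% of this 379 kb gene (chr11:88339382-88718306). Its regions measured 301 to 2135 bp (median 645 bp) in control and 134 to 2917 bp (median 603 bp) in cKO, with 18 narrower and 7 wider by 1.5-fold.

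Lrrc49, a leucine-rich repeat gene, was next with 21 regions and 7 open distal peaks, and Casz1 itself held 20 and 21. Sorcs2, a neuronal sorting receptor gene, held 18 and 32. Frmd4a, a cell polarity scaffold, held 16 and 25. Regions outnumbered open distal peaks in Msi2, Lrrc49, Pcbp3 (15 and 7), Rptor (15 and 13) and the zinc finger gene Zfp532 (14 and 10), but not in the other 7 of the 12 genes. Pcbp3 encodes a poly(C)-binding RNA regulator and Rptor a subunit of the mTOR complex. Tiam1, a Rac exchange factor, Sipa1l3, a Rap GTPase-activating protein, and Zmiz1, a transcriptional coactivator, held 14 regions each, and the adhesion molecule gene Ncam1 held 13. In all, 8 genes held 13 regions, among them Gse1 with 53 open distal peaks, and Ncam1 was taken as the twelfth gene by its summed region width. The median cKO to control ratio in these 12 genes ran from 0.65 in Lrrc49 and 0.65 in Sipa1l3 to 1.20 in Zfp532, and was below 1 in all but Zfp532 and Zmiz1 (1.0045).

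**Figure D4:**
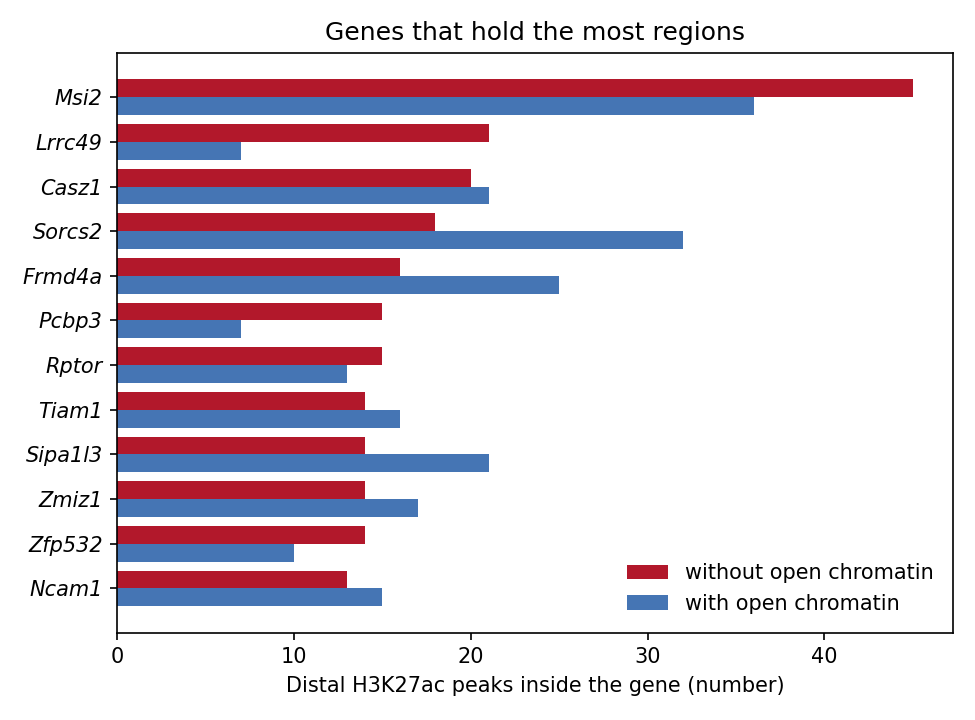
Number of distal H3K27ac peaks inside each of the 12 protein-coding genes with the most regions (x axis), without open chromatin (red) and with it (blue); of 8 genes with 13 regions, Ncam1 is shown for its summed region width. Msi2 leads with 45 and 36, and Lrrc49 (21 and 7) and Pcbp3 (15 and 7) have the largest excess of regions over open peaks in proportion.

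Casz1 is the gene deleted in the cKO, and its 20 regions remained acetylated there by the rule. They measured 327 to 1893 bp (median 657.5 bp) in control and 155 to 1929 bp (median 628.5 bp) in cKO. The widest (chr4:148885233-148887125) was 1893 bp in control and 1674 bp in cKO, and its nearest ATAC peak was 1936 bp away in control replicate 1, 1699 bp in control replicate 2, 1656 bp in cKO replicate 1 and 1882 bp in cKO replicate 2. Of the 20, 6 were narrower in cKO and 2 wider by 1.5-fold, and none overlapped H3K27me3. The ATAC gaps of the regions in Casz1 were 4 to 4068 bp.

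The regions also stood in runs. Within 10 kb of another region lay 1913 (44.2%, 42.7% to 45.7%), against 49.6% of the more numerous open distal peaks linked to their own kind. Linking at 10 kb gave 3116 runs, of which 2419 were lone regions, 452 pairs and 245 runs of at least 3 regions, with 1009 regions in the last. The longest run lay in Lrrc49 (chr9:60593226-60676109), 21 regions over 82.9 kb. Across that span the lists of control replicates 1 and 2 held 5 and 10 ATAC peaks, and those of cKO replicates 1 and 2 held 8 and 7, so the run alternated with open sites rather than being free of them. Its regions measured 325 to 1264 bp (median 431 bp) in control and 112 to 2298 bp (median 363 bp) in cKO, with 11 narrower and 4 wider, and 1 cKO peak of 2298 bp spanned 3 of them.

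**Figure D5:**
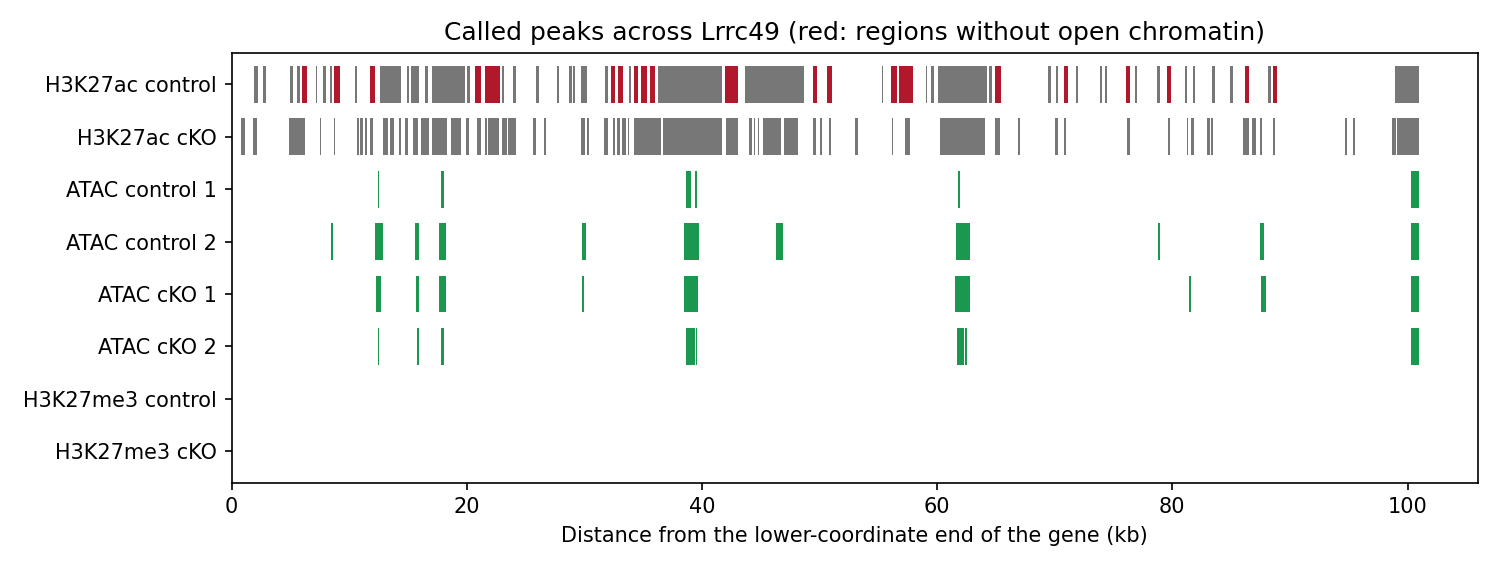
Called peaks across Lrrc49, drawn by distance from the lower-coordinate end of the gene (x axis, kb), with 1 row per library; regions are red, other H3K27ac peaks grey and ATAC peaks green. The 64 control H3K27ac peaks cover 41.3 kb of the gene and the 65 cKO peaks 34.96 kb; ATAC rows hold 6, 11, 9 and 8 peaks, and the H3K27me3 rows are empty.

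The next runs were 19 regions in Msi2 (chr11:88590745-88661797), 15 outside genes (chr9:83631820-83676950, 31.5 kb from Sh3bgrl2), 13 in Pcbp3 (chr10:76782870-76813833) and 11 in Dkk3 (chr7:112123218-112154401). The median cKO to control ratio was 0.74, 1.21, 0.89 and 0.77 in these runs. The intergenic run was thus the only one of the 5 with a ratio above 1.

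The 10 widest regions lay mostly inside protein-coding genes. The first (chr2:173259184-173262557) lay in Pmepa1, an inhibitor of TGF-beta signalling, and was 3374 bp in control and 3477 bp in cKO, 112 bp from an ATAC peak. A second region in Pmepa1 measured 2618 and 3887 bp. In Cspg5, a neural proteoglycan gene, a region measured 2860 bp and 3005 bp, 2207 bp from an ATAC peak. One in Lrba (chr3:86554651-86557364), 6.37 kb from the end of the eye development gene Mab21l2, measured 2714 and 2484 bp. The others of the 10 widest lay in Vac14 (2892 and 6008 bp), Arhgap31 (2713 and 2740 bp), Tspan15 (2654 and 12096 bp), Gse1 (2600 and 7292 bp) and Eogt (2584 and 1916 bp), and in the lncRNA gene Gm4258 on chromosome 1 (2636 and 2226 bp). None of the 10 had an H3K27me3 peak, and in Vac14, Tspan15 and Gse1 the cKO peaks reached an ATAC peak.

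Among the 867 regions with at least 1000 bp in the wider library, the highest ratios came from short control peaks that lay within 1 long cKO peak. The highest was 11.3 kb from Fmod, an extracellular matrix gene (chr1:134059576-134059965), with 390 bp in control and 9434 bp in cKO, and the next, in the lncRNA gene Gm30340 (chr3:17333016-17333456), had 441 and 9847 bp. In the lncRNA gene D630033O11Rik it was 305 and 5158 bp, and in Gpatch2 421 and 6245 bp. A region inside both Cacna2d4, a calcium channel subunit gene of photoreceptor synapses, and Lrtm2 had 421 and 6934 bp. Its nearest gene end was that of Lrtm2. The cKO peak reached an ATAC peak in all 6, the remaining one being on chromosome 18. The lowest ratio was in Trpm3, a cation channel gene (chr19:22986052-22987161), with 1110 bp in control and 113 bp in cKO, 16.9 kb from an ATAC peak. Next were regions 113 kb from Haao (1001 and 111 bp), 362 kb from Ptprc (1255 and 173 bp), in Rad51b (1002 and 141 bp), in Tcf7l2, a transcription factor gene of Wnt signalling (1229 and 204 bp), and in Pcbp3 (1134 and 234 bp). In none of these 6 did the cKO peak reach an ATAC peak. Reaching one requires a cKO peak beyond the region's edge, so both counts partly follow from the ratios that ranked these regions.

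Few regions were remote from all open chromatin. The farthest (chr11:91995353-91995934) was 281.7 kb from any ATAC peak and 418 kb from the nearest gene end, that of Kif2b, and measured 582 bp in control and 171 bp in cKO. The next outside chromosome 18 lay on chromosome 5 (79680625 to 79681821), 102.5 kb from an ATAC peak, with 1197 and 819 bp. A pair of regions in the lncRNA gene A930001A20Rik lay 91.9 and 91.3 kb from an ATAC peak, with 363 and 400 bp in control and a shared cKO peak of 969 bp.

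Genes of retinal cell types were then read from lists, each region being given to the gene that held it or to the nearest gene end within 50 kb. Of 371 listed genes on chromosomes 1 to 19, 85 had at least 1 region (22.9%), where 1771 of all 20661 protein-coding genes did (8.57%). Open distal peaks were assigned to 5275 of all protein-coding genes. They were assigned to 30 of 32 axon guidance, 21 of 26 retinal progenitor and 16 of 26 Müller glia genes. For rod genes it was 4 of 19, and for liver and muscle genes 0 of 14. The median length was 101 kb for genes that held a region and 17.5 kb for all protein-coding genes. The listed share was not matched for either. Over all protein-coding genes, 20.3% of the distal peaks so assigned were without open chromatin (3610 of 17795). The share was above this in 10 lists and below it in 12. The shares have no test, and several rest on 1 gene.

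Photoreceptor regulators had 28 of 76 distal peaks without open chromatin (36.8%, 26.1% to 48.7%), of which Casz1 gave 20. Without Casz1 the share was 23.5% (10.7% to 41.2%), an interval that includes the 20.3% over all genes. Prdm1, which favours photoreceptor over bipolar fate, held 5 regions of 365 to 974 bp in control and 315 to 1466 bp in cKO. Thrb, the thyroid hormone receptor gene of cones, held 2. The wider one (chr14:17729952-17732312) was 2361 bp in control and 2114 bp in cKO, with its nearest ATAC peak 1478 and 1099 bp away in the control replicates and 1075 and 1209 bp in the cKO replicates. The cone list had 3 of 10 (30.0%, 6.67% to 65.2%). The rod list had 1 of 6, a region in the ciliary gene Rp1 of 806 bp in control and 168 bp in cKO. At least 1 region was assigned to 1 of 19 rod genes and 2 of 11 cone genes, where 8.57% of all protein-coding genes had one.

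Müller glia genes had 41 of 118 (34.7%, 26.2% to 44.1%), and 27.6% without Dkk3. Dkk3, a secreted protein of progenitors and Müller glia, had 14 regions, 11 of them inside the gene, with 353 to 2162 bp in control and 144 to 1656 bp in cKO. Its widest (chr7:112152240-112154401) measured 2162 and 1656 bp, with ATAC peaks 4529 and 3386 bp away in the control replicates and 3278 and 4533 bp in the cKO replicates. Id3, an inhibitor of basic helix-loop-helix factors, had 7 regions between 5.80 and 42.8 kb from the gene, of 344 to 950 bp in control and 131 to 710 bp in cKO, 4 of them narrower by 1.5-fold and none wider. Sox8, a glial transcription factor gene, had 5, and Notch1 had 4.

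Temporal patterning genes, which set the order of cell birth, had 33 of 100 (33.0%, 23.9% to 43.1%). Without Casz1 the temporal patterning share was 22.4% (12.5% to 35.3%). Foxn4, which promotes horizontal and amacrine fates, had 5 regions beside 1 open distal peak. Those at chr5:114259168-114259702 and chr5:114260008-114260599 measured 535 and 592 bp in control and 133 and 169 bp in cKO. Those at chr5:114266610-114267562 and chr5:114267830-114268224 measured 953 and 395 bp in control and 3713 and 1455 bp in cKO, so neighbouring regions inside Foxn4 differed between the libraries in opposite directions. Bipolar genes had 8 of 22 (36.4%, 17.2% to 59.3%). Among them were 5 in Prkca, a marker of rod bipolar cells, and 2 near Irx6, a homeobox gene of OFF bipolar cells. One near Irx6 had 580 bp in control and lay within a cKO peak of 5785 bp. Without Prkca the bipolar share was 27.3% (6.02% to 61.0%). Horizontal cell genes had 9 of 31 (29.0%, 14.2% to 48.0%). Without Foxn4 the share was 16% (4.54% to 36.1%), which is below the 20.3% over all genes. Of the intervals in this paragraph, only that of temporal patterning genes with Casz1 included lies above 20.3%.

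Retinal progenitor genes had 12 of 91 (13.2%, 7.00% to 21.9%), with 4 at Notch1, 3 at the cyclin gene Ccnd1 and 2 in Nfia. Neurogenic progenitor genes had 1 of 24 (4.17%, 0.11% to 21.1%), in the Notch modifier Mfng. Ganglion cell genes had 3 of 28 (10.7%, 2.27% to 28.2%), at Stmn2, Rbpms and Ebf3, and amacrine genes 6 of 38 (15.8%, 6.02% to 31.3%), 2 of them near Barhl2. The intervals of these 4 lists all include the 20.3% over all genes. Without Notch1 the retinal progenitor share was 9.88% (4.36% to 18.5%). Neurogenic progenitor genes without Mfng had 0 of 21 (0% to 16.1%). Both of these intervals lie below 20.3%. The ganglion cell share without Ebf3 was 8.70% (1.07% to 28.0%) and the amacrine share without Barhl2 12.5% (3.51% to 29.0%). Those intervals still include 20.3%. Axon guidance genes had 29 of 178 (16.3%, 11.2% to 22.6%), 9 of which lay in the ephrin receptor gene Ephb2. Synaptic adhesion genes had 61 of 274 (22.3%, 17.5% to 27.7%), led by Ncam1 (14) and Dscam (8). The intervals of both full lists hold the share over all genes. Without Ncam1 the synaptic adhesion share was 19.3% (14.5% to 24.8%), which also holds it. Without Ephb2 the axon guidance share was 13.1% (8.17% to 19.5%), an interval below 20.3%. All 7 regions in Tenm4, a teneurin gene, were narrower by 1.5-fold in cKO, with 302 to 691 bp in control and 116 to 386 bp in cKO.

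Genes of other cells in the eye were represented too, and their part in these values was not tested. Blood vessel genes had 11 of 45 (24.4%, 12.9% to 39.5%), at 6 of 25 genes. Of these, 3 were in Kdr, the VEGF receptor gene, 3 near Egfl7 and 2 in Pecam1. In Kdr, control widths of 516, 843 and 891 bp stood against 324, 5971 and 1068 bp in cKO. Microglia and macrophage genes had 1 of 13, astrocyte genes 1 of 6, pigment epithelium genes 2 of 9, and lens and cornea genes 2 of 15. Erythroid genes had 0 of 2, and liver and muscle genes had no distal peak. Notch pathway genes had 15 of 74 (20.3%), NuRD genes 2 of 10 and Polycomb genes 6 of 27 (22.2%). The 3 regions in Jarid2, a cofactor of Polycomb repressive complex, had 650, 387 and 1006 bp in control. The cKO peaks over them measured 3339, 3339 and 3143 bp, and the value of 3339 bp may be 1 peak shared by neighbouring regions.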

How the data were processed

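The 8 deposited peak lists analysed here each describe 1 library. Each file gives 6 columns: chromosome, start, end, name, score and strand. The deposited score is 0 in every peak, so the lists hold no height, p-value or read count; depth per library is unknown and a single peak carries no error. The positions are the authors' called intervals, and the submitters' processing notes name Bowtie2, MACS2, deepTools and mm10, with neither version nor role. Not given in the sources used here are the peak threshold, the calling mode, duplicate handling, the Tn5 shift and how input was used. Longer lists may come from deeper libraries. The 2 input samples were not analysed here.

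Overlaps (1 bp minimum), gaps and widths were computed in Python 3.11.15 with numpy 2.4.6, pandas 2.3.3 and scipy 1.17.1, after tests on simulated intervals with known answers. A cKO width is the summed width of the whole cKO peaks that overlap a region. With the cKO list as the start, the control width was summed in this way instead. Gene and transcript positions came from RefSeq tables of GRCm38.p6, and all 371 listed genes on chromosomes 1 to 19 were matched by symbol. A gene's start and end were used without strand. The observed to expected CpG ratio is the CpG count times the length, divided by the product of the C and G counts. Sequence composition of whole regions needs a genome and was not run; RefSeq promoter sequences were used instead. Binomial intervals are Clopper-Pearson at 95%, and intervals of medians come from order statistics.

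The regions and the 23 gene lists (422 entries) were chosen with earlier results of these data known. Regions were named by rule: the 10 widest, the 6 highest and 6 lowest width ratios with at least 1000 bp in the wider library, the 6 farthest from ATAC peaks, the 8 with most H3K27me3 in both libraries and the 5 longest runs. Genes named were the 12 with most regions and up to 4 per list. A gene that this rule took is not reported here. Regions with an annotated start, those with a miRNA and individual regions within named genes were picked after their values were seen. ATAC libraries were compared by exact permutation, without pairing. Libraries of the same replicate number deviated in opposite directions over the 22139 distal peaks (r = -0.53 of covered share, which with 2 libraries per group fixes the crossed value at 0.53), so the numbers were not taken to pair libraries. Per the labels, ATAC was done in independent experiments on more than 1 day, and no label assigns a library to a day.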

Additional observations from a re-analysis of the deposited data

How the results depend on the processing

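Over 10 results, 153 values were computed under other settings. Of these, 102 stayed close, 49 moved and 2 reversed, where close means within 1.5-fold for the number of regions, the same sign for the ATAC difference and inside the reported interval for the others. The cause was not tested except where a setting fixes it by construction. The number of regions was 6528 at a minimum width of 200 bp, 2018 at 500 bp, 2678 when cKO peaks had to cover 50% of the control peak, and 2561 when H3K27ac peaks were first merged across gaps of up to 500 bp, a setting chosen after seeing the data. The share of distal peaks without open chromatin was 24.6%, 12.9%, 14.8% and 13.4% under these settings, 20.3% at over 2 kb from gene ends, 20.2% with the ends of all annotated genes, 14.3% with ATAC peaks extended by 500 bp, and 19.6% to 24.5% leaving out 1 ATAC library each.

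The median cKO to control width ratio was 0.87 at 200 bp, 0.77 at 500 bp, 0.99 with 50% coverage, 0.77 with extended ATAC peaks, 0.84 from the cKO list and 0.59 counting only bases inside the region. Narrower cKO peaks made up 33.4% at 200 bp, 41.3% at 500 bp, 16.7% with 50% coverage, 42.0% with merged peaks, 59.0% by bases inside the region and 24.1% at 2-fold. Wider ones made up 22.5%, 13.4%, 24.1% and 21.6% under the first 4 of these, 0% by bases inside the region (where widening cannot be seen), 11.3% at 2-fold, 15.2% with extended ATAC peaks, 19.4% from the cKO list and 16.5% to 17.7% leaving out 1 ATAC library each. The order of narrower over wider turned with 50% coverage.

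H3K27me3 was found over 1.85% of regions in control and 1.96% in cKO with the ends of all annotated genes, and over 1.92% and 1.82% when 50% of the region had to be covered. The share inside a gene was 68.6% at 500 bp, 71.7% with all annotated genes and 65.6% with 50% coverage. The share within 10 kb of another region was 50.7% at 200 bp, 33.0% at 500 bp, 42.2% with all annotated genes, 33.0% with 50% coverage, 46.5% from the cKO list and 24.1% with merged peaks, and 34.9% within 5 kb and 55.8% within 25 kb. The cKO minus control difference in flanking ATAC peaks ran from -9.69 to 23.1 percentage points leaving out 1 library each, and was -9.69 without control replicate 1 and -0.60 without cKO replicate 1. With the replicate number as a block it was 5.89 points (exact permutation p = 1), and with crossed numbers, added after seeing the data, also 5.89 (p = 1). The mean difference is the same under either pairing by arithmetic, and so few pairs allow no small p, so the block decides nothing.

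Each mark rests on 1 library per genotype and each ATAC group on 2, depth is unknown, and peak width depends on depth and calling. H3K27ac and ATAC were measured at different ages and in different preparations.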
